A study of Mus musculus with 4 samples.

Results

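Il33/Opalin-type oligodendrocytes are mature myelinating glia picked out here by 4 genes: Il33, an alarmin cytokine kept in the nucleus, Opalin, a myelin membrane glycoprotein, Slc13a1, a sulfate transporter, and Ninj2, an adhesion molecule. A nucleus of mouse hippocampus was a member when it had at least 500 unique molecular identifiers (UMIs, one per captured transcript), at most 5% mitochondrial UMIs, and at least 3 of the oligodendrocyte genes Mog, Mag, Mobp, St18 and Prr5l. It could hold at most 1 of Aqp4, Slc4a4, Pdgfra, Inpp5d and Flt1, at most 3 UMIs of Syt1 and Rbfox3 together, and at most 1 UMI of C4b and Serpina3n together. Its UMIs of the 4 Il33-side genes had to exceed those of Hapln2, Anln, Klk6 and Sec14l5. The rule found 3697 nuclei among 32048 barcodes and among 10930 oligodendrocyte nuclei. Another 5093 oligodendrocyte nuclei fell on the Hapln2/Anln side of the same rule.

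Oligodendrocytes wrap axons in compacted membrane, supply them with metabolites and hold the iron and sterol that myelin needs. Mature oligodendrocytes of the mouse brain are known to fall along a range of states, with one end marked by Ptgds, Il33 and Opalin and the other by Klk6, Hapln2 and Anln. Oligodendrocytes in tauopathy and amyloid models can take on a further state marked by C4b, Serpina3n and class I antigen presentation genes. They also carry the glucocorticoid receptor, which switches on genes such as Zbtb16, Sgk1 and Fkbp5.

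The study used single-nucleus RNA sequencing of frozen hippocampus from littermate mice. WT mice carried neither transgene (1 library). PS19 mice expressed human 1N4R tau with the P301S mutation from the Prnp promoter on a B6;C3 background (2 libraries). TG_PS19 mice carried the same tau transgene and also expressed the sorting receptor SORLA from the Rosa26 locus under a CMV/β-actin promoter element (1 library). Tissue was pooled within each group, and the mice's ages beyond "aged", their sexes and the number of animals per pool are not given in the sources used here. Nothing in the labels says that the PS19 libraries came from separate pools, so the spread between these libraries may be technical. The p-values measure only that spread, pooled over genes. In the main fit of the members a gene's own spread between the PS19 libraries did not enter its standard error. The lone WT and TG_PS19 libraries were assumed to vary as the PS19 pair did.

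The members numbered 1365 in WT, 524 and 575 in PS19 replicates 1 and 2, and 1233 in TG_PS19. Their median UMI counts were 1924, 2278, 2946 and 2012 in the same order, and their summed UMIs were 2988039, 1308197, 1843638 and 2872665. Pairs of libraries shared between 5 and 32 barcodes, of which 1 belonged to members of both libraries. A search for doublets by simulation marked the top-scoring nuclei of each library, up to a number fixed beforehand by library size. That was 10.2% of the nuclei within the UMI and mitochondrial limits in WT, 3.71% and 3.94% in PS19 and 7.78% in TG_PS19. Among the members, 13.8% were marked in WT, 3.05% and 5.04% in PS19 and 9.08% in TG_PS19. The TG_PS19 library stood apart in holding transcripts of both sexes. Its members had 2081 UMIs of Xist, a transcript of female cells, against 5, 1 and 2 UMIs in the WT and PS19 members. Of the 1233 TG_PS19 members, 314 had a Y-linked UMI and no Xist UMI, 477 had an Xist UMI and no Y-linked UMI, 65 had both and 377 had neither. Results on TG_PS19 use all its members unless the 314 Y-linked nuclei are named, and the main ones are also given with those nuclei alone.

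The transgenes were read from the human sequences counted beside the mouse genes. Human MAPT gave 0 CPM, that is UMIs scaled to a total of 1000000 per library, in WT, where a count of 0 allows up to 1.00 CPM (3 counts), 17.6 and 21.7 CPM in the PS19 libraries and 16.7 CPM in TG_PS19. Human SORL1 was at 56.7 CPM in TG_PS19 (95% exact Poisson interval 48.4 to 66.2) and at 0 in the other 3 libraries, which allows up to 1.00, 2.29 and 1.63 CPM. The labels of these libraries and their transgenes thus matched in the members. The mouse gene Sorl1 lay at 53.2, 38.2, 38.0 and 47.0 CPM in WT, PS19 replicates 1 and 2 and TG_PS19, and it passed the test in no comparison (smallest adjusted p = 0.44).

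Myelin genes dominated the members in every library. Mbp, which compacts the inner faces of the membrane, was at 3876, 3931, 3959 and 3453 CPM in WT, PS19 replicates 1 and 2 and TG_PS19, against 103 to 150 CPM in the nuclei that were no oligodendrocytes. Mog ranged from 1265 to 1508 CPM and Mag from 851 to 1478 CPM. The 4 Il33-side genes did not share the members' identity equally. Il33 gave 34.2%, 34.2%, 35.7% and 25.6% of the Il33-side UMIs in WT, PS19 replicates 1 and 2 and TG_PS19. Slc13a1 gave 18.2%, 16.4%, 18.5% and 28.4%, so that TG_PS19 had the lowest part from Il33 and the highest from Slc13a1. These genes chose the members, and the values describe them without a test.

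The boundary to the Hapln2/Anln type was narrow. Between 18.4% (PS19 replicate 2) and 28.6% (WT) of members passed by a margin of a single UMI, and between 7.65% and 20.6% had no Hapln2-side UMI at all. A sum over 15 genes outside the rule that led on the Il33 side rose from 945 to 1262 CPM in nuclei with a margin of -3 or less to between 4170 and 6002 CPM in nuclei with a margin of 3 or more. Members with a margin of 1, just inside the rule, had 3229, 4476, 4396 and 2831 CPM. Nuclei with equal UMIs on each side, just outside it, had 2551, 3764, 5004 and 3328 CPM. Members and non-members next to the boundary thus overlapped, and in PS19 replicate 2 and TG_PS19 the excluded nuclei had the higher sum. Kirrel3 was the largest of the 15, at 1387, 2737, 2864 and 1538 CPM over all members of WT, PS19 replicates 1 and 2 and TG_PS19. Prickle1, the next largest, was at 496, 560, 627 and 440 CPM, so the sum rests heavily on Kirrel3. The 15 genes were picked from the same nuclei, so the gradient is a description.

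**Figure D1:**
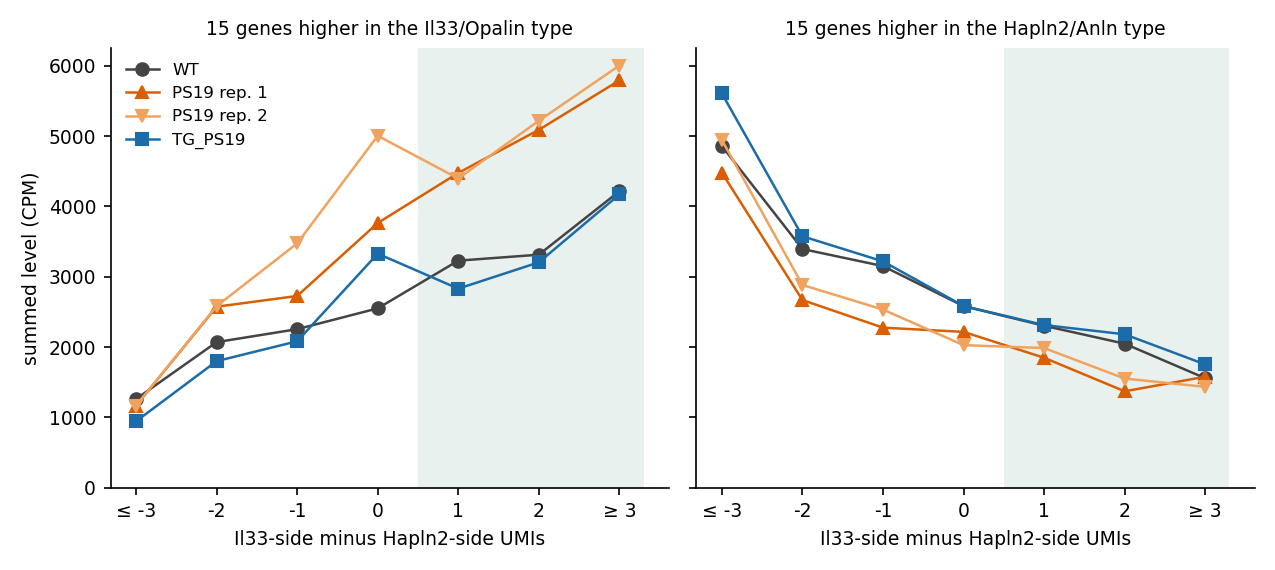
Summed level (CPM, vertical axis) of 15 leading Il33-side genes outside the rule, against the margin of Il33-side over Hapln2-side UMIs per nucleus (horizontal axis), 1 line per library. The sum climbs from 945 to 1262 CPM at the Hapln2 end to 4170 to 6002 CPM at the Il33 end, and at a margin of 0 PS19 replicate 2 and TG_PS19 lie above their own value at a margin of 1. Kirrel3 is the largest of the 15 genes, at 1387 CPM over all WT members and 2737 and 2864 CPM in PS19.

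Among 3697 genes with at least 50 CPM, 42 were more than 0.5 higher on the log2 scale in the Il33/Opalin than in the Hapln2/Anln type in all 4 libraries, and 48 were lower by as much. The leading genes of the Il33 side were of mixed kinds. The noncoding 7630403G23Rik was 1.94 to 2.18 higher over the 4 libraries on the log2 scale. Synpr, a synaptic vesicle protein, was 1.61 to 2.29 higher, and Kit, a receptor tyrosine kinase, 1.51 to 2.07 higher. Kirrel3, an immunoglobulin-family adhesion molecule, was 1.42 to 2.27 higher, and Gfra1, a co-receptor for GDNF, 1.06 to 1.47 higher. Man1a, a Golgi mannosidase, was 1.21 to 1.71 higher. On the other side, Cntn3, a contactin, lay between -2.09 and -1.73, and Enpp6, a choline phosphodiesterase of newly differentiated oligodendrocytes, between -1.83 and -1.62. Enpp6 did not stand for its list. Of 16 genes of newly formed oligodendrocytes, 7 were higher in the Il33/Opalin type in all 4 libraries, 2 were lower in all 4 and 7 were mixed (median 0.23). Of 20 genes of compact myelin, 7 were higher in the Il33/Opalin type in all 4 libraries, 6 were lower in all 4 and 7 were mixed. Cd9, a tetraspanin, was 0.54 to 0.67 higher, the only one of the 20 past 0.5 in every library, and Mal, a lipid-raft protein of myelin, was 0.35 to 0.46 higher. Gsn, the actin-severing gelsolin, lay between -0.53 and -0.14, while Mbp lay between -0.09 and -0.06. Ptgds, prostaglandin D synthase, was 0.60 to 1.03 higher in the Il33/Opalin type, which is the end of the range it is known to mark. Of 10 genes known from that end, Ptgds among them, 3 were higher in all 4 libraries, 5 were lower in all 4 and 2 were mixed (median -0.03). The 5 lower ones were Selenop (-1.42 to -0.88), Apod (-0.78 to -0.30), Cdh19 (-0.48 to -0.23), Trf (-0.41 to -0.24) and Car2 (-0.09 to -0.04). Cells were sorted into these types by their own counts, so none of these ratios was tested.

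The Il33/Opalin type made up 37.1% of oligodendrocyte nuclei in WT (95% exact binomial interval 35.5 to 38.7), 27.8% (25.8 to 29.8) and 29.6% (27.6 to 31.7) in the PS19 libraries and 36.1% (34.5 to 37.7) in TG_PS19. The PS19 mean was 28.7% ± 1.28 (SD, n = 2), below both other libraries. Oligodendrocyte nuclei were also thinned to 1000 UMIs, which left out 62, 16, 1 and 150 shallower ones in WT, PS19 replicates 1 and 2 and TG_PS19. The shares were then 35.1%, 30.5%, 33.4% and 33.4% in the same order. PS19 replicate 2 was thus level with TG_PS19, and the PS19 mean was 3.21 points under WT in place of 8.41. PS19 members were the deeper ones (median UMI counts above), and thinning also lowered the share of excluded C4b/Serpina3n nuclei in PS19, to 7.43% and 4.89%. The Hapln2/Anln share was 49.6% in WT, 41.4% and 40.8% in PS19 and 49.6% in TG_PS19, so that it was lower in PS19 too. The nuclei with at least 2 UMIs of C4b and Serpina3n, which the rule leaves out, were 1.01% of oligodendrocytes in WT, 24.0% and 22.2% in PS19 and 0.614% in TG_PS19. With those nuclei and the ties left out, the Il33/Opalin share of both types together was 42.8%, 40.2%, 42.0% and 42.1%. As a share of all nuclei kept, the type was at 10.7%, 11.3%, 11.7% and 12.7%, so that WT was the lowest under that denominator. Among the excluded C4b/Serpina3n nuclei of PS19 that took a side, 44.6% and 48.5% were on the Il33 side. The intervals cover counting error only, and with lone libraries in 2 of 3 groups the shares have no test.

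**Figure D2:**
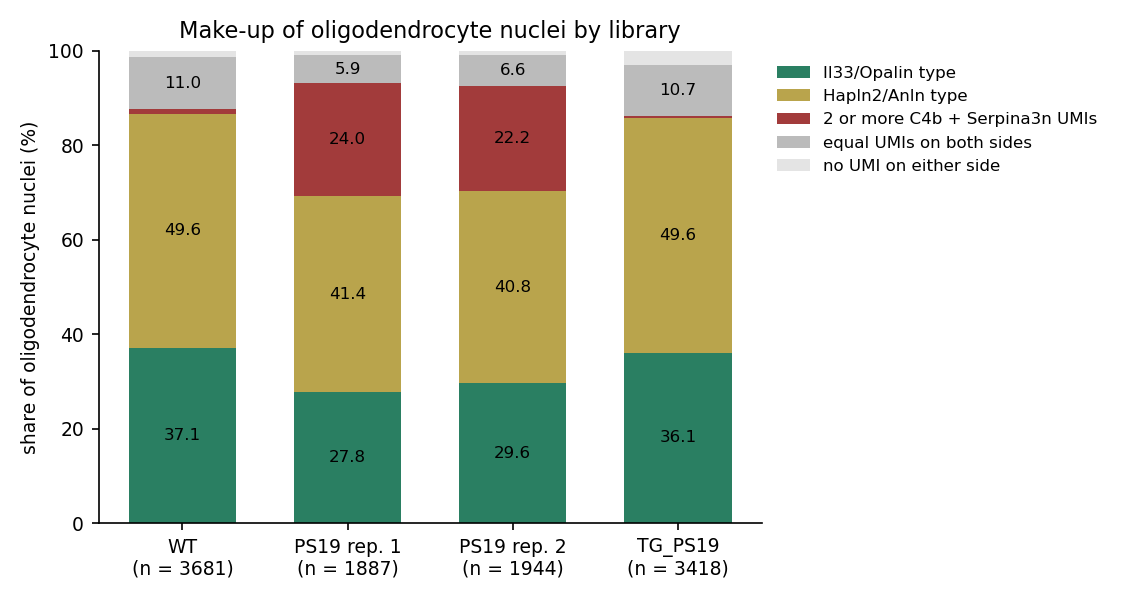
Make-up of oligodendrocyte nuclei (percent, vertical axis) in each of the 4 libraries, as stacked bars. The parts are both types, nuclei with 2 or more C4b and Serpina3n UMIs, and nuclei with equal UMIs or none on both sides. The Il33/Opalin type lies at 27.8% and 29.6% in PS19 against 37.1% in WT. The C4b/Serpina3n nuclei lie at 24.0% and 22.2% in PS19 against 1.01% in WT.

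Genes were compared between genotypes on UMIs summed per library over the members, with 13936 genes tested and the 22 genes of the rule left out. Levels below are CPM scaled between libraries, given in the order WT, PS19 replicate 1, PS19 replicate 2 and TG_PS19 where 4 follow each other, and each change is a log2 ratio ± its standard error (SE) with a Benjamini-Hochberg adjusted p from edgeR's quasi-likelihood test. The comparisons share the PS19 libraries. PS19 against WT asked what mutant tau changes, and 214 genes (1.54% of those tested) rose and 462 (3.32%) fell. TG_PS19 against PS19 asked what SORLA changes in tau mice, and 693 (4.97%) rose and 202 (1.45%) fell. In TG_PS19 against WT, 144 (1.03%) rose and 45 (0.323%) fell. With the Y-linked nuclei alone for TG_PS19, 466 of 12332 genes (3.78%) rose and 183 (1.48%) fell against PS19, and 136 (1.10%) rose and 68 (0.551%) fell against WT. DESeq2 called 41, 53 and 8 genes in these comparisons, all of them among edgeR's calls.

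Genes known to respond to glucocorticoids rose together in PS19. Of 18 such genes tested, 10 rose, namely Zbtb16, Sgk1, Cdkn1a, Fkbp5, Per1, Plekhf1, Klf9, Pdk4, Nfkbia and Mt1, and 1 fell, the phagocytic receptor Mertk. Their median change was 0.72 against 0.00 over all genes tested, with 1.54% of all genes called higher. DESeq2 called 2 of the 18 higher and 0 lower. This list was assembled with earlier results of these data known.

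Zbtb16, a zinc-finger transcription repressor (chromosome 9, 48654297 to 48836222, minus strand, GRCm38), was at 62.8 CPM in WT, against 298 and 301 CPM in the PS19 libraries. TG_PS19 had 229 CPM. Both PS19 libraries exceeded WT by 2.25 ± 0.17 (adjusted p = 8.3e-37), the difference was called in 13 of 13 alternatives, and TG_PS19 lay between them, 1.87 above WT. Its UMIs were spread over many nuclei: the 10 richest nuclei of each library held 9.67% to 13.8% of them. Sgk1, a serum- and glucocorticoid-regulated kinase (chromosome 10, 21882184 to 21999903, plus strand), was at 64.4, 232, 213 and 168 CPM in the same order. Its rise in PS19 was 1.79 ± 0.17 (adjusted p = 1.7e-21), and TG_PS19 was 1.38 above WT. Fkbp5, a co-chaperone that lowers the receptor's affinity for hormone (chromosome 17, 28399094 to 28517527, minus strand), went from 31.9 CPM in WT to 65.4 and 86.9 CPM in PS19 and was 58.2 CPM in TG_PS19. Each of the 3 genes was lowest in WT and higher in both PS19 libraries, without overlap.

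The clock gene Per1 was at 20.9 CPM in WT, rose to 61.5 and 43.2 CPM in PS19 (1.30 ± 0.27) and had 25.0 CPM in TG_PS19. Of 19 clock genes tested, Per1 alone rose and Rora and Rorb fell, with a median of 0.11, where 1.54% of all genes were called higher and 3.32% lower. Rora and Rorb did not pass without the marked doublets, and Rorb was at 69.2, 29.2, 13.1 and 56.7 CPM. Sums of astrocyte markers in the members moved the same way (1677, 537, 302 and 1381 CPM), and their part in these falls was not tested. Cdkn1a, the cell-cycle inhibitor p21 (chromosome 17, 29090976 to 29100727, plus strand), had 2 UMIs in the WT members against 89 in the PS19 members, a CPM ratio of 42.2 (95% exact interval 11.3 to 354). Its level was 3.93 CPM in TG_PS19, well under the PS19 mean of 28.7 ± 1.88 CPM (SD, n = 2). Hif3a, a hypoxia-inducible factor subunit, was at 27.0, 73.1, 64.0 and 37.8 CPM, and Arrdc2, an arrestin-domain protein, at 43.8, 117, 96.8 and 64.6 CPM. Both genes rose in PS19, by 1.33 and 1.28.

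Glucocorticoid-responsive genes also rose in the Hapln2/Anln type, where 8 of 18 were called higher and 1 lower (median 0.63, with 1.51% of all genes called higher and 4.39% lower). In that type Zbtb16 rose by 2.02 ± 0.16 and Sgk1 by 1.63 ± 0.17. The difference between the types was 0.24 for Zbtb16 and 0.16 for Sgk1 in the interaction test, and neither passed (adjusted p = 1.0 for each). Without the nuclei marked as doublets, 9 of 17 rose in the members and none fell, with 1.26% of all genes called higher and 1.60% lower.

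The promoter window of Sgk1 is shown because this gene is among the largest risers and carries the palindrome that the glucocorticoid receptor is known to bind. In the RefSeq window chr10:21993640-21993939 (plus strand, GRCm38.p6), from 250 bases before to 50 after one of 6 annotated starts, capitals mark the only match to GNACA followed by any 3 bases and its reverse complement TGTNC, searched on both strands. Its first base lies 188 bases before the start.

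Sgk1: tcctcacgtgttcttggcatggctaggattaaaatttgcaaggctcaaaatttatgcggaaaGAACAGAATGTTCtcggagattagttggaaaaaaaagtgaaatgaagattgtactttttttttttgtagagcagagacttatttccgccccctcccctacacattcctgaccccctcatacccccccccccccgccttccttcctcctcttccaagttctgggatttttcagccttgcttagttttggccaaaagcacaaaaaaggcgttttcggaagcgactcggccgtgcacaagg

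The motif occurred in the windows of 145 of 27025 genes (0.537%). Among the 18 glucocorticoid-responsive genes, 16 had a window and 2 held the motif, Sgk1 and Mt1. Fkbp5 had no match in its window. A match is a string in this window and was not tied to binding by any measurement here.

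**Figure D3:**
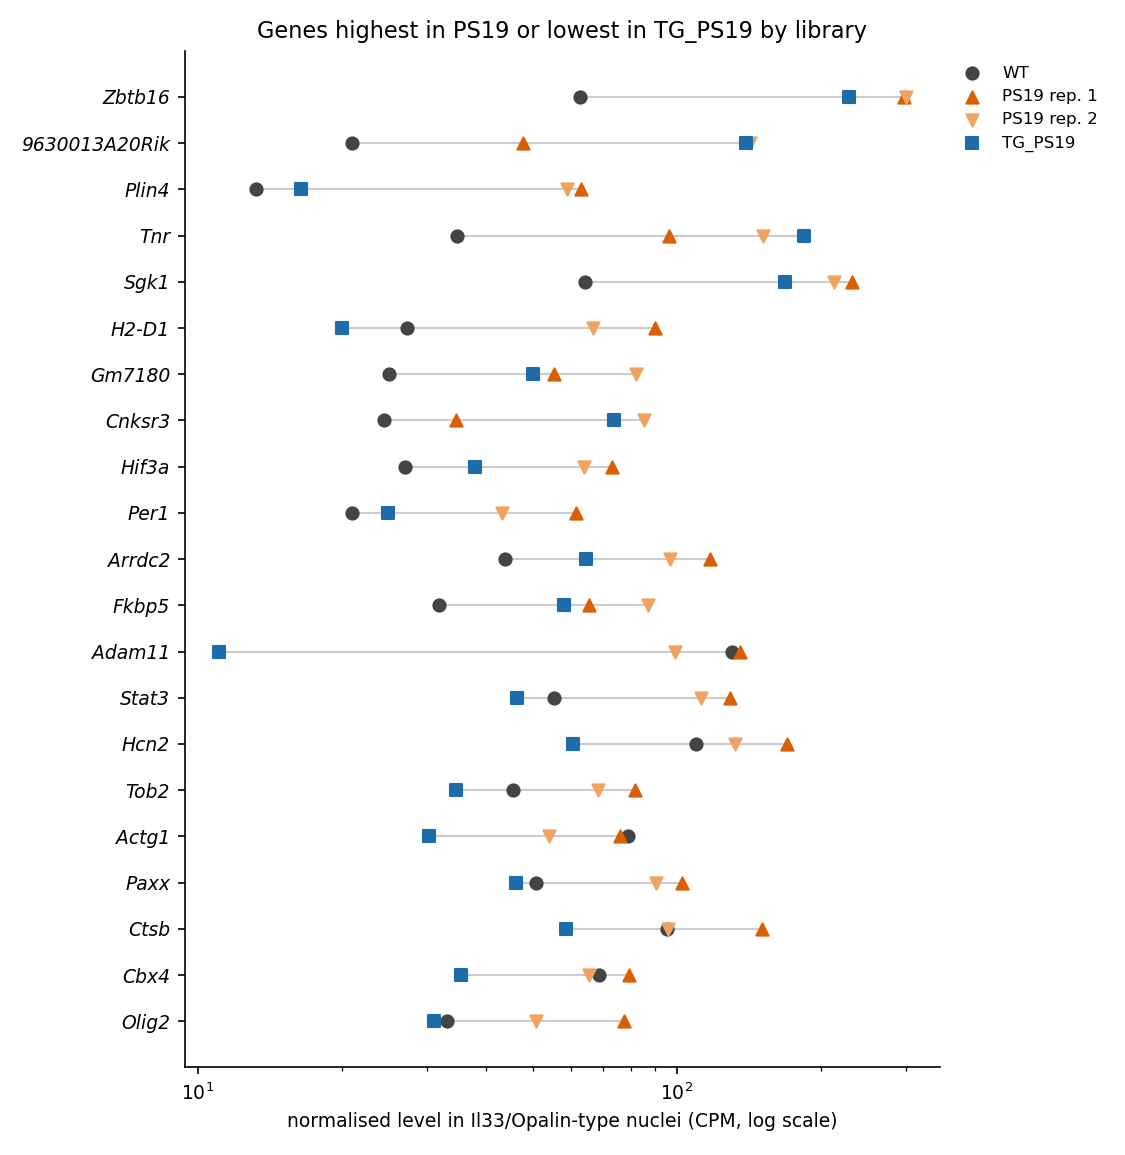
Level of named genes (scaled CPM, log axis) in the Il33/Opalin-type nuclei of each library. For Zbtb16, Sgk1, Fkbp5, Plin4, H2-D1 and Stat3 both PS19 points lie above WT, and TG_PS19 is at 16.4 against 13.2 CPM in WT for Plin4 and at 229 against 62.8 CPM for Zbtb16. Each TG_PS19 point pools nuclei with Xist and with Y-linked transcripts, which differed for both genes (Plin4 28.1 and 3.797 CPM, Zbtb16 386 and 54.4 CPM).

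The TG_PS19 levels of these genes differed between nuclei with Y-linked and with Xist transcripts. Zbtb16 was at 54.4 CPM (95% exact Poisson interval 39.4 to 73.3) in the Y-linked nuclei, next to 65.3 CPM in all WT members, and at 386 CPM (350 to 425) in the Xist nuclei. Sgk1 was at 46.8 CPM (33.0 to 64.6) in the first and 311 CPM (279 to 346) in the second. Fkbp5 was at 24.1 and 96.1 CPM and Per1 at 10.1 and 40.8 CPM. For these 4 genes the Y-linked nuclei of TG_PS19 were as low as or lower than WT, and the Xist nuclei of Zbtb16, Sgk1 and Fkbp5 were above both PS19 libraries. For Fkbp5 the interval of the Xist nuclei (78.7 to 116 CPM) included the level of PS19 replicate 2. Nuclei of 1 library are no replicates, the genes were chosen after their values were seen, and sex, animal and litter cannot be told apart within the pool.

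With the 314 Y-linked nuclei standing for TG_PS19, 8 of 17 glucocorticoid-responsive genes were lower than in PS19 and 1 was higher (median -1.07), where all members gave 4 lower and 1 higher of 18 (median -0.34). Over all genes tested, 1.48% were called lower and 3.78% higher with the Y-linked nuclei, and 1.45% and 4.97% with all members. Zbtb16 then changed by -2.40 (adjusted p = 5.5e-24) in TG_PS19 against PS19, against -0.39 (adjusted p = 0.092) with all members. Sgk1 changed by -2.18 (adjusted p = 3.6e-17), against -0.40 (adjusted p = 0.11). In TG_PS19 against WT, 3 of 18 were higher with all members (Zbtb16, Sgk1 and Fkbp5), where 1.03% of all genes were called higher. With the Y-linked nuclei edgeR called none of 17 in either direction (median -0.41), where 1.10% of all genes were called higher and 0.551% lower.

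**Figure D4:**
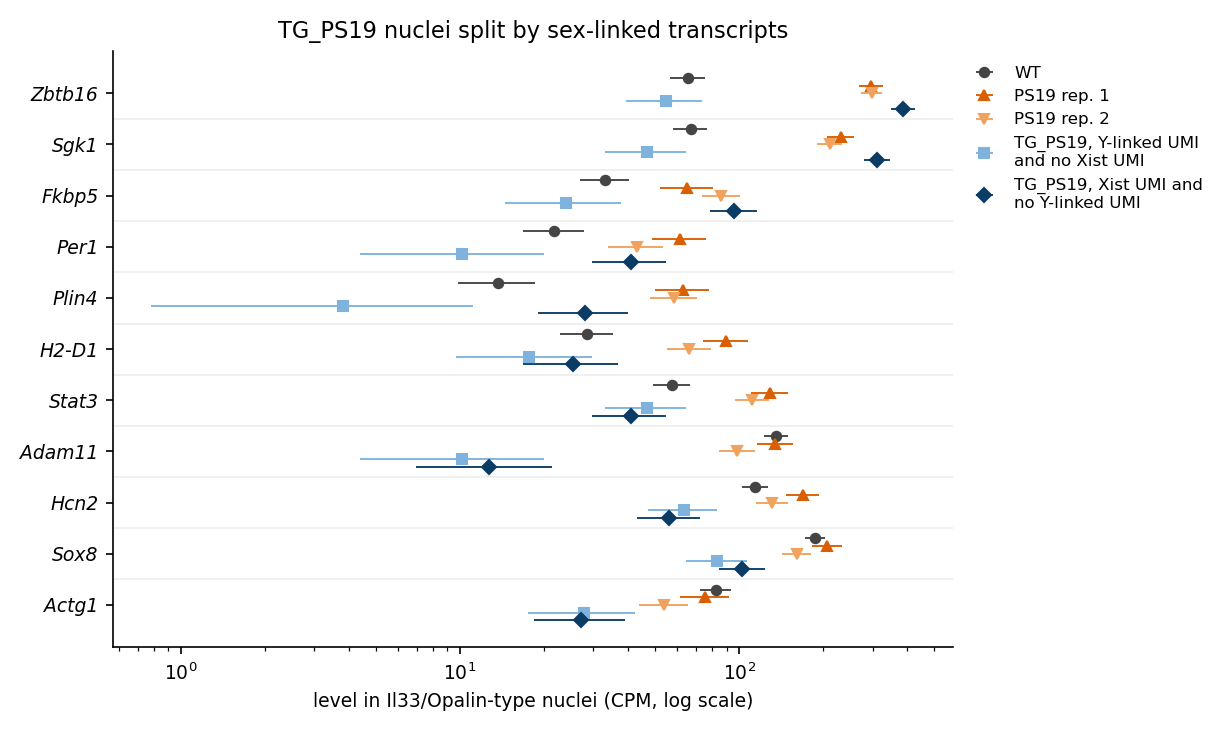
Level (CPM, log axis) of 11 named genes in the Il33/Opalin-type nuclei of WT and PS19 and in the TG_PS19 nuclei split by sex-linked transcripts, with 95% exact Poisson intervals that cover counting error only. For Zbtb16, Sgk1 and Fkbp5 the Y-linked nuclei lie near WT and the Xist nuclei above PS19 (Zbtb16 54.4 against 386 CPM), whereas for H2-D1, Stat3 and Adam11 both subsets lie together (Adam11 10.1 and 12.7 CPM). The Fkbp5 interval of the Xist nuclei includes the level of PS19 replicate 2.

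Disease-associated oligodendrocyte genes moved in these nuclei although the rule removes nuclei with 2 or more C4b and Serpina3n UMIs. Nuclei just under that limit stayed in unequally: 29.8% and 27.1% of the PS19 members held a C4b UMI, against 5.57% in WT and 5.03% in TG_PS19. Their part in the changes was not tested. Of 18 genes tested outside the rule, 4 rose in PS19 (Plin4, H2-D1, Stat3 and H2-K1) and none fell, where 1.54% of all genes were called higher. The median was 0.56, and DESeq2 called 1 of the 18. Plin4, which coats lipid droplets, was at 63.1 and 59.1 CPM in the PS19 libraries, against 13.2 CPM in WT and 16.4 CPM in TG_PS19. It rose by 2.20 ± 0.28 in PS19 (adjusted p = 2.9e-12) and changed by -1.89 ± 0.28 in TG_PS19 against PS19 (adjusted p = 2.3e-09). H2-D1, a class I histocompatibility chain, was at 27.4, 90.0, 66.7 and 19.98 CPM, and changed by 1.498 ± 0.24 and then -1.95 ± 0.25. Stat3, the transcription factor downstream of IL-6 family cytokines (chromosome 11, 100885098 to 100939540, minus strand), was at 55.3, 129, 112 and 46.4 CPM, with changes of 1.12 ± 0.19 and -1.37 ± 0.20. WT and TG_PS19 were low and both PS19 libraries high for each of the 3 genes.

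In TG_PS19 against PS19, 5 of the 18 fell (H2-D1, Stat3, Plin4, Ctsb and H2-K1) and Igfbp2 rose, with a median of -0.89, and DESeq2 called 2. Over all genes tested, 1.45% were called lower and 4.97% higher. With the Y-linked nuclei, 5 of 16 fell and none rose (median -1.30, with 1.48% of all genes called lower), and H2-K1 and Igfbp2 did not pass (adjusted p = 0.060 and 0.83). In TG_PS19 against WT, neither edgeR nor DESeq2 called any, 3 had an unadjusted p under 0.05 in edgeR, and the median was -0.02. With the Y-linked nuclei 1 of 16 was lower than in WT, Ctsb (-1.02, adjusted p = 0.019), where 0.551% of all genes were called lower, and the median was -0.50. H2-D1 and Stat3 were alike in the 2 subsets of TG_PS19: 17.7 and 25.4 CPM for H2-D1 and 46.8 and 40.8 CPM for Stat3 in Y-linked and Xist nuclei. Plin4 had 3 UMIs (3.797 CPM, interval 0.783 to 11.1) in the Y-linked and 28.1 CPM (19.1 to 39.9) in the Xist nuclei. With the limit on C4b and Serpina3n dropped, an alternative chosen after the data were seen, 8 of 17 rose in PS19, with 2.33% of all genes called higher and 4.34% lower.

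The excluded genes themselves could be tested over all oligodendrocyte nuclei, a population their values did not split. C4b, complement component 4, was at 312 and 231 CPM in the PS19 libraries, against 29.5 CPM in WT (a rise of 3.20, adjusted p = 2.9e-94) and 25.5 CPM in TG_PS19 (a change of -3.41). Of the Il33-side genes, Ninj2 was at 251, 374, 376 and 332 CPM and rose by 0.58 in PS19 (adjusted p = 7.7e-05). Il33 was at 424, 522, 495 and 335 CPM; it did not pass in PS19 against WT (0.26, adjusted p = 0.17) and changed by -0.60 in TG_PS19 against PS19 (adjusted p = 2.5e-05). Slc13a1 was at 183, 174, 188 and 281 CPM, highest in TG_PS19, with 0.63 against PS19 (adjusted p = 6.0e-06) and 0.62 against WT. Opalin was at 384, 354, 302 and 282 CPM and changed by -0.45 in TG_PS19 against WT (adjusted p = 0.045). These TG_PS19 levels pool both subsets. Before scaling, Opalin was at 318 CPM in the Y-linked and 223 CPM in the Xist oligodendrocyte nuclei, and Ninj2 at 268 and 392 CPM. Il33 was at 310 and 341 CPM and Slc13a1 at 251 and 279 CPM. The type's defining genes thus did not move as a block between these libraries.

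Kirrel3 rose in the Il33/Opalin type and not by as much in its neighbour. Its level in the members was 2754 and 2887 CPM in the PS19 libraries, 1334 CPM in WT and 1577 CPM in TG_PS19 (chromosome 9, 34485894 to 35036716, plus strand). The rise in PS19 was 1.08 ± 0.10 (adjusted p = 8.6e-24), and the change in TG_PS19 against PS19 was -0.84 ± 0.10 (adjusted p = 9.8e-15), called in 13 of 13 alternatives each. In the Hapln2/Anln type it was at 490, 559, 654 and 480 CPM, a difference of 0.31 that did not pass (adjusted p = 0.21). A test of the difference between the types gave 0.77 ± 0.08 for PS19 against WT (adjusted p = 7.5e-05) and -0.51 ± 0.08 for TG_PS19 against PS19 (adjusted p = 0.014). The Y-linked and Xist subsets of TG_PS19 had 1077 and 1872 CPM of Kirrel3, both under the PS19 libraries, and with the Y-linked nuclei alone the change against PS19 was -1.33.

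That test of a difference between types called 3 of 14993 genes (0.0200%) in PS19 against WT and 5 (0.0333%) in TG_PS19 against PS19. The first count ranged from 0 to 32 over the alternatives, with 25 without the marked doublets and 30 at a margin of 2 UMIs. On simulated data for PS19 against WT the test called 6% of 1.5-fold and 50% of 2-fold differences, so a low count does not show that the types responded alike. Ptgds was at 2777, 4155, 3122 and 2589 CPM in the members and at 1819, 2158, 1533 and 1528 CPM in the Hapln2/Anln type. Its PS19 against WT change was 0.37 higher in the members, yet the level in PS19 replicate 2 was nearer to WT than to replicate 1. Within the members Ptgds rose by 0.39 in PS19, by 0.17 without PS19 replicate 1 and by 0.59 without replicate 2. Ctnna2, an alpha-catenin, was at 873, 645, 718 and 884 CPM in the members and at 1243, 1271, 1526 and 1542 CPM in the other type, a difference of -0.53. The PS19 libraries differed less for Kirrel3, at 2821 ± 94.4 CPM (SD, n = 2), than for Ptgds, at 3639 ± 731 CPM.

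**Figure D5:**
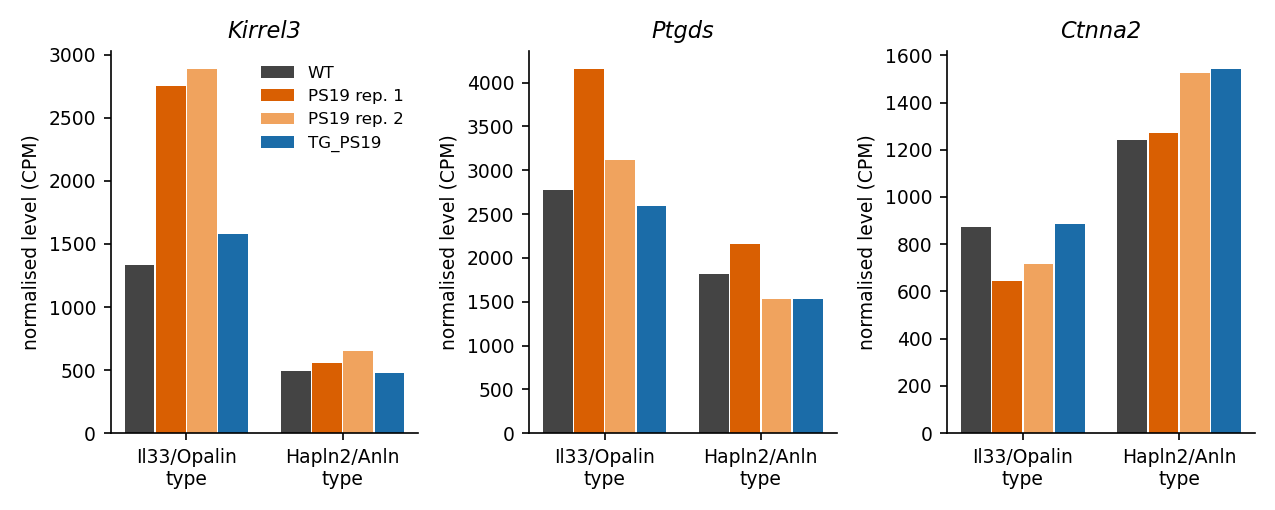
Normalised level (CPM, vertical axis) of Kirrel3, Ptgds and Ctnna2 in the Il33/Opalin and in the Hapln2/Anln type, 1 bar per library. In the Il33/Opalin type Kirrel3 lies at 2754 and 2887 CPM in PS19 against 1334 CPM in WT. In the Hapln2/Anln type it lies at 559 and 654 CPM against 490 CPM.

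Other genes that set the type apart were mixed. Bfsp2, a beaded filament protein, was at 106, 212, 208 and 173 CPM and rose by 0.99 in PS19 (adjusted p = 1.7e-07). Ust, a sulfotransferase acting on glycosaminoglycans, was at 87.9, 161, 165 and 110 CPM, up by 0.89 in PS19 and changed by -0.57 in TG_PS19 against PS19, which did not pass with the Y-linked nuclei alone. Man1a was at 70.5, 116, 137 and 113 CPM and rose by 0.85. Cntn4, another contactin, was at 417, 267, 286 and 197 CPM, and changed by -0.59 and then -0.49. In TG_PS19 it was at 286 CPM in the Y-linked and 102 CPM in the Xist nuclei, and with the Y-linked nuclei alone the change against PS19 was 0.11. Synpr and Gfra1 passed in no comparison.

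A few myelin genes rose in PS19, and most sterol synthesis genes had negative changes. Of 20 genes of compact myelin, 3 rose (15%) and none fell, where 1.54% of all genes were called higher, and DESeq2 called none (5 had an unadjusted p under 0.05 in edgeR). Their median was 0.03. Cldn11, the tight-junction claudin of the myelin sheath, was at 528, 835, 685 and 500 CPM and rose by 0.52 (adjusted p = 0.00085). Cryab, a small heat-shock protein, was at 168, 282, 241 and 201 CPM and rose by 0.64, and Cd9 rose by 0.44. Cldn11 and Cd9 did not pass without the marked doublets or after thinning to 1000 UMIs. Mbp changed by 0.09 ± 0.09 (adjusted p = 0.75). Of 24 sterol synthesis genes, Hmgcs1 and Msmo1 fell, none rose, and 21 had a negative change. Their median was -0.44 against 0.00 over all genes, 3.32% of which were called lower, and DESeq2 called none of the 24 (8 had an unadjusted p under 0.05 in edgeR). Hmgcs1, which makes HMG-CoA at the head of the pathway, was at 42.2, 22.3, 22.4 and 29.3 CPM in the order given above, a change of -0.91 ± 0.27 (adjusted p = 0.018) that did not pass after thinning or at a margin of 2 UMIs. Msmo1 changed by -0.63, by -0.998 without PS19 replicate 1 and by -0.25 without replicate 2. In TG_PS19 against PS19 none of the 24 was called by edgeR or DESeq2, 2 had an unadjusted p under 0.05, and the median was 0.23 (0.31 over 21 genes with the Y-linked nuclei, none called).

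Transcription factors of the lineage gave 3 rises among 13 in PS19, where 1.54% of all genes were called higher, and DESeq2 called none (5 had an unadjusted p under 0.05 in edgeR). Olig2 was at 33.1, 77.7, 50.9 and 31.0 CPM and rose by 0.93 ± 0.23 (adjusted p = 0.0030), but the change was 0.61 without PS19 replicate 1, and it did not pass among nuclei with at most 2 UMIs of 10 astrocyte markers (0.70, adjusted p = 0.099). Myrf, which drives myelin gene expression, was at 152, 233, 216 and 173 CPM and rose by 0.57, and Zfp536 rose by 0.43. Neither passed without the marked doublets or after thinning to 1000 UMIs. Sox8 was level in PS19 and low in TG_PS19, at 179, 208, 162 and 91.0 CPM, a change of -1.01 ± 0.17 against PS19 and -0.98 ± 0.18 against WT. With the Y-linked nuclei alone these were -1.07 and -1.05, both called. Of 11 interferon-stimulated genes, 7 immediate early genes, 8 genes of the interleukin-1 family and 13 genes of iron handling tested, neither edgeR nor DESeq2 called any in PS19 against WT. The medians were 0.30, 0.09, -0.15 and -0.00, and 2, 0, 1 and 0 genes had an unadjusted p under 0.05.

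The genes that fell most in PS19 were ones that other cells express more. Gpc5, an astrocyte glypican, was at 469, 101, 40.5 and 462 CPM, low in both PS19 libraries, and Slc1a2, the main astrocytic glutamate transporter, was at 425, 133, 43.7 and 317 CPM. Their changes in PS19 against WT were -2.80 and -2.34. Without PS19 replicate 1 they were -3.51 and -3.26, and without replicate 2 they were -2.21 and -1.67. Of the 462 genes that fell, 372 (80.5%) were at least 2-fold higher in the nuclei that were no oligodendrocytes than in the members, compared with 13.1% of all genes tested and 6.54% of the 214 that rose. The sum of 10 astrocyte markers in the members was 1677, 537, 302 and 1381 CPM, with 9 of 10 lower in PS19 and none at 0. The sum of 10 neuron markers was 561, 309, 381 and 618 CPM, with 5 of 10 lower, where 3.32% of all genes were called lower. Prox1, which was not among those 5, gave 198, 183, 234 and 189 CPM of that sum. It was higher in the members than in the nuclei that were no oligodendrocytes (94.4, 101, 110 and 102 CPM). The sum with Prox1 thus understates how much lower the other neuron markers were in PS19. Members with more than 2 astrocyte-marker UMIs were 22.5% in WT, 6.49% and 6.43% in PS19 and 17.4% in TG_PS19.

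Leaving out such nuclei lowered the count of falls more than that of rises. Without the marked doublets the astrocyte sum was 699, 278, 219 and 652 CPM, and 158 genes rose and 200 fell in PS19. With at most 2 astrocyte-marker UMIs allowed, it was 457, 219, 178 and 356 CPM, and 140 rose and 218 fell. Slc1a2 then changed by -1.67 and Gpc5 by -1.88, while Zbtb16 rose by 2.31, Sgk1 by 1.86, Plin4 by 2.24 and Kirrel3 by 1.09. The part of other cells' transcripts in the remaining falls was not tested. Tnr and 9630013A20Rik, among the largest risers in PS19, sat in few nuclei: the 10 richest nuclei held 97.6% and 97.1% of the Tnr UMIs in the PS19 libraries, and 72.6% and 86.2% of those of 9630013A20Rik. The rise of 9630013A20Rik was 2.24, and 1.16 without PS19 replicate 2.

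Genes of other cells also led the rises in TG_PS19 against PS19: 447 of 693 (64.5%) were at least 2-fold higher in other nuclei, against 2 of 202 (0.990%) of those that fell. For the Y-linked nuclei it was 247 of 466 (53.0%) against 12 of 183 (6.56%). Gm20713 rose by 3.29, Tafa1, a secreted neuronal protein, by 3.08, and Gpc5 by 2.78. Without PS19 replicate 1 and without replicate 2, Gm20713 rose by 4.12 and 2.51 and Gpc5 by 3.49 and 2.19. Gm20713, Tafa1 and Gpc5 rose by 3.19, 3.23 and 3.01 with the Y-linked nuclei. All 3 were also lower in PS19 than in WT, and the astrocyte and neuron sums given above were higher in TG_PS19 than in either PS19 library. Their part in these rises was not tested.

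The falls in TG_PS19 against PS19 were led by Adam11, a catalytically inactive membrane protein of the ADAM family (chromosome 11, 102761439 to 102780262, plus strand). It was at 11.1 CPM in TG_PS19, against 130 CPM in WT and 135 and 99.0 CPM in the PS19 libraries. The TG_PS19 library was the lowest by a wide gap, -3.38 ± 0.26 against PS19 (adjusted p = 2.8e-36) and -3.55 ± 0.26 against WT (adjusted p = 4.0e-37), and 13 of 13 alternatives called it. Both subsets of TG_PS19 were low, with 10.1 CPM (4.37 to 19.95) in the Y-linked and 12.7 CPM (6.94 to 21.3) in the Xist nuclei. The Hapln2/Anln type showed the same direction, at 142, 156, 143 and 22.4 CPM, while the nuclei that were no oligodendrocytes had 31.2, 33.97, 26.1 and 23.05 CPM.

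Smaller falls in TG_PS19 included Hcn2, a pacemaker-type cation channel, at 109, 170, 132 and 60.7 CPM (-1.30 ± 0.19). Actg1, cytoplasmic actin, was at 79.2, 76.2, 54.1 and 30.3 CPM (-1.08 ± 0.23), and the lysosomal protease Ctsb at 95.3, 151, 95.7 and 58.5 CPM (-1.05 ± 0.19). In each the TG_PS19 library was the lowest of the 4, and with the Y-linked nuclei the changes of Hcn2, Actg1 and Ctsb were -1.18, -1.14 and -1.35, all called. Of 21 lysosomal genes, Ctsb, Psap and Ctsd fell in TG_PS19 against PS19 and none rose (median -0.31, with 1.45% of all genes called lower). In the Y-linked nuclei 4 of 21 fell (median -0.38, with 1.48% of all genes called lower). Trf, the iron carrier transferrin, was at 1323, 1765, 1212 and 962 CPM and changed by -0.63 against PS19, by -0.34 without PS19 replicate 1, and by -0.46 against WT. The change against WT did not pass with the Y-linked nuclei alone or without the marked doublets.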

How the data were processed

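The deposited matrices held raw UMI counts per gene and barcode for 4 libraries (10x Genomics 3′ v3.1 chemistry, per the labels' protocols), made with Cell Ranger 7.1.0 on GRCm38, per the submitters' processing notes. Of 55403 features, 54349 matched GENCODE M21 and 2 were human. Strand handling by the counting is not given in the sources used here, so overlapping and antisense genes (Xist and Tsix) cannot be told apart. Nuclei were typed by the rule, and counts were summed per library over the members.

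Sums of all 4 libraries were fitted with edgeR 4.0.16 (R 4.3.3, TMM scaling, filterByExpr, quasi-likelihood F-test), with 1 residual degree of freedom (the PS19 libraries), and were adjusted by the Benjamini-Hochberg method at 0.05. The SE was derived from the F statistic. In the main fit of the members the prior degrees of freedom were infinite, so each gene's SE used the trend over genes and not its own spread. The 22 rule genes and mitochondrial genes were left out. The difference between the types was tested on 8 sums with a library block. Ratios between types used library CPM plus a pseudocount of 10. Doublets were scored against 2 simulated doublets per nucleus, and the top-scoring nuclei were marked at a preset rate of 0.8% per 1000 barcodes. Scripts were tested on simulated data.

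The members, the 27 gene lists and the tests were chosen with earlier results of these data known. Named were the rule genes, the 12 largest rises and 12 largest falls past the threshold in PS19 against WT and in TG_PS19 against PS19 (at least 50 CPM in the higher group, sex-linked transcripts and transgenes aside), up to 4 called genes per list by smallest p, 15 per side of the type ratio and 8 of the test between types. Other genes, among them those of the TG_PS19 subsets, were named after their values were seen. Alternatives were the scaling (relative log expression, library totals), the low-count filter, DESeq2 1.42.0, the prior and residual degrees of freedom, nuclei with at least 1000 UMIs, thinning to 1000 UMIs, a margin of 2 UMIs, doublets left out, Y-linked TG_PS19 nuclei only, and each PS19 library left out. Of the symbols shared by 2 identifiers (Ddit3, Aldoa), the one with more counts was used.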

Additional observations from a re-analysis of the deposited data

Results flagged for a closer look

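Each result here is a genotype difference that differed between the Il33/Opalin and the Hapln2/Anln type in the test of the difference itself, given as the Il33/Opalin minus the Hapln2/Anln change on the log2 scale. In PS19 against WT, Kirrel3 differed by 0.77 (called in 11 of 13 alternatives), Ctnna2 by -0.53 (9 of 13) and Ptgds by 0.37 (8 of 13).

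In TG_PS19 against PS19, Kirrel3 differed by -0.51 and was called in 8 of 13 alternatives. The noncoding 9630013A20Rik differed by 2.61 (8 of 13), with levels of 20.9, 47.7, 142 and 140 CPM in the members and 12.6, 35.7, 115 and 18.1 CPM in the other type. In TG_PS19 the 10 richest members held 74.7% of its UMIs. Gm13187 differed by 3.14 (7 of 13), and there the 10 richest members held 95.2%.

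Cntn1, an axonal contactin, differed by 1.48 (6 of 13) and was at 47.3, 26.2, 45.9 and 135 CPM in the members. Gabrg3, a GABA-A receptor subunit, differed by 2.69 (6 of 13) on 61, 5, 8 and 93 UMIs. The sums of neuron and precursor markers in the members were also highest in TG_PS19, at 618 and 794 CPM, and their part in these differences was not tested.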

How the results depend on the processing

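With lone WT and TG_PS19 libraries the calls rest on the spread between the PS19 libraries, pooled over genes. These libraries differed by more than counting noise (chi-square per degree of freedom 1.94 over 10822 genes). A gene that varies more than the pooled spread, between animals or between the PS19 libraries, would be called too readily. Changes in genes near 1 UMI per several nuclei are limited by depth. The 2 alternatives on the C4b and Serpina3n limit and on astrocyte-marker UMIs were chosen after seeing the data. Without 1 PS19 library no residual degree of freedom is left: directions held for 675 of 675 and 673 of 673 called genes in PS19 against WT, and for 894 of 894 and 891 of 892 in TG_PS19 against PS19. No paired analysis was possible because only the PS19 group has numbered replicates.

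The 676 calls of PS19 against WT became 41 with DESeq2, 209 after thinning, 358 without doublets and 358 under the astrocyte-marker limit. The 895 of TG_PS19 against PS19 became 53, 334 after thinning and 457 under that limit, and the 189 of TG_PS19 against WT became 8 with DESeq2 and 54 after thinning. With library totals, the split of TG_PS19 against WT was 89 higher and 73 lower in place of 144 and 45. The 3 differences between types in PS19 against WT became 1 with relative log expression, 32 without the filter, 0 with DESeq2 (7 at an unadjusted p under 0.05), 0 with adjusted degrees of freedom, 7 at 1000 UMIs or more, 8 after thinning, 30 at a margin of 2, 25 without doublets, 1 with Y-linked TG_PS19 nuclei, 31 with the C4b limit dropped and 28 under the astrocyte-marker limit. The 5 in TG_PS19 against PS19 became 1, 20, 0 with DESeq2 (7 at an unadjusted p under 0.05), 1 with adjusted degrees of freedom, 0 after thinning, 17 at a margin of 2, 19 without doublets and 33 with the C4b limit dropped. The cause was not tested.

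The share in PS19 minus WT, -8.41 points, was -1.71 of both types only, 0.789 of all kept nuclei (the opposite direction), -3.21 after thinning, -3.69 at a margin of 2 and -5.39 without Il33 in the rule. TG_PS19 minus PS19, 7.40 points, was 1.02, 1.201, 1.48 after thinning and 3.92 at a margin of 2. Leaving out each PS19 library gave -9.31 to -7.50 and 6.50 to 8.30 points.

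Directions turned for Trpm3 in PS19 against WT (0.11 without doublets) and, in TG_PS19 against PS19, for Tnr (-0.17 without doublets), Rorb (-0.36) and Lhfpl3 (-0.024) under the astrocyte-marker limit, Gm13187 (-0.94 at a margin of 2) and, with the Y-linked TG_PS19 nuclei, Eif2s3y (0.21), Uty (0.89), Csf1r (-0.16), Mecom (-0.99) and Cntn4 (0.11). The Y-linked TG_PS19 nuclei were chosen by their UMIs of Uty, Ddx3y, Kdm5d and Eif2s3y, while PS19 nuclei were not. The turns of Uty and Eif2s3y thus follow from that choice and are no result. Of 2636 alternative values for named genes, 2237 kept direction and side of the threshold, 355 fell under it and 10 turned, Uty and Eif2s3y included.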
